A study of Homo sapiens with 8 samples.

Results

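The 9 genes described here were 3 receptors of the peroxisome proliferator-activated receptor (PPAR) family, *PPARA*, *PPARD* and *PPARG*, and 6 of their target genes of fatty acid handling, *PDK4*, *ANGPTL4*, *PLIN2*, *CPT1A*, *ACADVL* and *FABP1*. They were chosen by name, because *PDK4* and *ANGPTL4* had been seen to be higher after treatment in NCI-H716, so the NCI-H716 values of these genes are a description, with no p-value, and nothing is read from how many of them were called there. All 9 were found among the 63241 genes listed for NCI-H716, and 4 of them (*PPARD*, *PPARG*, *PDK4* and *FABP1*) among the 28043 genes used for HCT116, whose table used here covers chromosomes 1 to 8 and the start of chromosome 9.

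HCT116 and NCI-H716 are human colorectal cancer cell lines, and RNA-seq had been used to ask how their transcriptomes respond to Z325 (ZINC000101867325), a candidate small-molecule inhibitor of the fibroblast growth factor receptors (FGFRs). Each line had 2 control and 2 Z325-treated libraries, called biological duplicates in the study, and each library was amplified as full-length cDNA from about 100 cells. HCT116 was grown in DMEM and NCI-H716 in 1640 medium. The labels name the groups only as control and test, and while the study names a working concentration for its later experiments, no dose or duration of treatment for the RNA-seq itself is given in the sources used here. Each group is a model of 1 cell line only, and the p-values below measure only the spread between 2 libraries of that line.

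PPARs are nuclear receptors that bind fatty acids and their derivatives, pair with the retinoid X receptor and activate genes from DNA elements made of 2 copies of AGGTCA separated by 1 base, called direct repeat 1. *PPARA* and *PPARD* are best known for switching on fatty acid oxidation in liver, muscle and gut, and *PPARG* for fat storage and, in the colon, for differentiation of the epithelium. Among the targets, *PDK4* phosphorylates and thereby turns off pyruvate dehydrogenase, which spares glucose when fat is burned, and *ANGPTL4* is a secreted inhibitor of lipoprotein lipase. *PLIN2* coats lipid droplets, *CPT1A* is the rate-limiting step of fatty acid entry into mitochondria, *ACADVL* starts the oxidation of very long chains, and *FABP1* binds fatty acids in liver and intestine. Several of these genes also respond to other signals, *PDK4* to glucocorticoids and FOXO factors and *ANGPTL4* to hypoxia.

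The PPAR element was searched for as AGGTCA, then N (any base), then AGGTCA, on both strands, with up to 1 mismatch, within 5000 bases on each side of the start site of the canonical transcript. Of the 9 genes only *PDK4* had such a match, and 9.51% of 20033 protein-coding genes had one in windows of the same size. It lies 4719 bases upstream of the *PDK4* start site at chr7:95601221-95601249 on the + strand of hg38, in an intron of *PDK4-AS1*, a long non-coding gene that runs the other way. It differs from the element by the substitution G2A, counted from the first base of the element. The sequence is shown because *PDK4* is the gene with the element and one of the pair that drew attention to the family, with the matched bases in capitals and the flanking bases in lower case.

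*PDK4* direct repeat: cttggaggAAGTCATAGGTCAtctgactt

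The 250 bases before the RefSeq start sites (GRCh38.p14) of *PDK4* and *ANGPTL4*, the pair that was higher in NCI-H716, and of *PPARG* and *FABP1*, the genes with at least 1 AGGTCA in a window, are printed for comparison, with AGGTCA or its reverse complement TGACCT in capitals. The *PDK4* window is chr7:95596517-95596766 on the - strand and overlaps exons of *PDK4-AS1* on the other strand. The *ANGPTL4* window is chr19:8363905-8364154 on the + strand, in an intron of a longer annotated *ANGPTL4* transcript. The *PPARG* window, the first of 6 RefSeq starts, is chr3:12287118-12287367 on the + strand, and the *FABP1* window is chr2:88128063-88128312 on the - strand. Neither of the last pair overlaps an annotated gene.

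*PDK4* upstream: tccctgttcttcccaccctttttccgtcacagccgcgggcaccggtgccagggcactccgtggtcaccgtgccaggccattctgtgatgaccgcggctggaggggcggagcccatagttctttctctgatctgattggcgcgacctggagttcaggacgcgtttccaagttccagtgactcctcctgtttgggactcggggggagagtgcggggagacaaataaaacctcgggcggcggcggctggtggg

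*ANGPTL4* upstream: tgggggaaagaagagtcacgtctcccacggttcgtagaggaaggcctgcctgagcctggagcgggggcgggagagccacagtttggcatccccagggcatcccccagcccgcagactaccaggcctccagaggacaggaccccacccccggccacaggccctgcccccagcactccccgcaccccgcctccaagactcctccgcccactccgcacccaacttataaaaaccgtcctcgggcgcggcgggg

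*PPARG* upstream: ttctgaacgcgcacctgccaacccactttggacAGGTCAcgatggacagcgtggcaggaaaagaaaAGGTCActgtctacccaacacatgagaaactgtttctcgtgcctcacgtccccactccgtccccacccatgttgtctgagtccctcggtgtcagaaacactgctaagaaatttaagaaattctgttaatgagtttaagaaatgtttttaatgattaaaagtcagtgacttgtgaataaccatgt

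*FABP1* upstream: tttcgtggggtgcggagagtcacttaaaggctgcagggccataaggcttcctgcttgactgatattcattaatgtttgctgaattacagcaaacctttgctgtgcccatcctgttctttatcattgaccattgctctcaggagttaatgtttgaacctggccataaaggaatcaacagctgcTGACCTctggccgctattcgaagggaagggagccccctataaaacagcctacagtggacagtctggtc

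AGGTCA was found in windows of *PPARG* and *FABP1* and in no window of the other 7 genes, and 13.8% of 35116 RefSeq promoter windows of 300 bases hold one. All 9 genes were matched to RefSeq promoters. A match describes the letters, not a bound site, and no match says only that these letters are not in this window.

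The NCI-H716 libraries held 10210239 to 19738840 estimated reads in genes and 3 of the HCT116 libraries 13183792 to 13396225 reads in the listed genes, while HCT116 Z325 replicate 2 held 3434620, so the HCT116 values of the 9 genes, the calls in the lists and, of the listed genes named, those whose call changed or whose value moved by over 1.5 times are also given without it. Levels are given as CPM, read counts scaled to a common library total within each line. The HCT116 total covers only the chromosomes listed, so CPM of the 2 lines are on unlike bases unless a common base is named. *EPCAM*, an epithelial surface protein, was at a mean of 1589 CPM in HCT116 and 44.9 CPM in NCI-H716, where the epithelial keratins *KRT8* and *KRT18* were at 322 and 305 CPM and the neuroendocrine granule protein *CHGB* at 583 CPM. The other epithelial markers listed for HCT116, *CDX1* and *VIL1*, were at 0.143 and 0.136 CPM. Of the enteroendocrine markers listed for HCT116, *SCG2* was at 18.9, *PCSK1* at 0.0391 and *NEUROD1* at 0 CPM. Of the other enteroendocrine markers in NCI-H716, *PCSK1* was at 119, *CHGA* at 101, *SCG2* at 31.9, *INSM1* at 11.8, *SYP* at 6.09 and *NEUROD1* at 0.0189 CPM. Of the other epithelial markers in NCI-H716, *VIL1* was at 16.3 and *CDX2* at 14.95 CPM, *CDX1* was at 0, and the intestinal keratin *KRT20* and *CDH1* were at or under 0.215 CPM. In that line *ALB* was at 363 CPM and *COL3A1* at 293 CPM, while the other hepatocyte and fibroblast markers stayed at or under 2.77 CPM. In NCI-H716 the summed level of the 8 epithelial markers was 747 to 778 CPM in the controls and 638 to 650 CPM with Z325, that of 7 enteroendocrine markers 699 to 783 and 867 to 1062 CPM, and that of 5 fibroblast markers 245 to 268 and 312 to 354 CPM, and their part in the results below was not tested. Summed adipocyte markers reached at most 1.88 CPM in any library. Over all genes tested with edgeR's quasi-likelihood test at a Benjamini-Hochberg adjusted p under 0.05, 184 were higher and 191 lower with Z325 in HCT116 and 57 were higher and 14 lower in NCI-H716. Without Z325 replicate 2, 514 were higher and 562 lower in HCT116. DESeq2 called 173 higher and 191 lower in NCI-H716.

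Among the receptors in NCI-H716, *PPARA* (chr22:46150521-46243755) was low in the controls, at 5.45 and 6.30 CPM normalized by the trimmed mean of M values (TMM), and at 14.2 and 17.8 CPM with Z325. These rest on 72 and 65 estimated reads in the controls and 186 and 355 with Z325. Both treated libraries lay above both controls, and the fitted log2 fold change was 1.45 ± 0.27 (standard error), a ratio of mean CPM of 2.73. Per length, the *PPARA* values the authors deposited, as TPM (transcripts scaled to a common total), were 0.52 and 1.71 in the controls and 3.79 and 2.46 TPM with Z325, a wider spread than that of the reads. The mean transcript length that RSEM assigned to *PPARA* was 8188 and 3034 bases in the controls and 2981 and 5448 bases with Z325, so the reads were shared out among long and short transcripts differently in each library. In bulk RNA, more cells that express a gene and more RNA per cell cannot be told apart for this or any value below.

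*PPARG* (chr3:12287368-12434356) had more reads than the other receptors in NCI-H716 and more than *PPARD* in HCT116. In NCI-H716 it was at 40.1 and 32.4 CPM in the controls and 41.8 and 40.1 CPM with Z325, a log2 fold change of 0.17 ± 0.19. The lowest treated value and the highest control value were nearly the same. *PPARD* (chr6:35342558-35428191) was at 1.14 and 1.07 CPM in the controls and 1.298 and 0.854 CPM with Z325, on 11 to 17 estimated reads a library, and its log2 fold change was -0.05 ± 0.64. Its groups overlapped, and with so few reads no difference was detectable at this depth.

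*PDK4* (chr7:95583499-95596516, - strand) was at 8.25 and 11.5 CPM in the NCI-H716 controls and at 45.5 and 60.3 CPM with Z325. The log2 fold change was 2.43 ± 0.25, a ratio of mean CPM of 5.35. Both treated libraries held several times the control level, with 596 and 1200 estimated reads against 109 and 119. Leaving out any 1 of the 4 libraries gave 2.20 to 2.69. *ANGPTL4* (chr19:8363289-8374370) was at 4.09 and 4.07 CPM in the controls and at 24.97 and 26.8 CPM with Z325, a log2 fold change of 2.66 ± 0.25 and a ratio of 6.35. Its replicates lay closer together than those of *PDK4*, and its log2 fold change ran from 2.63 to 2.72 with 1 library left out.

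**Figure D1:**
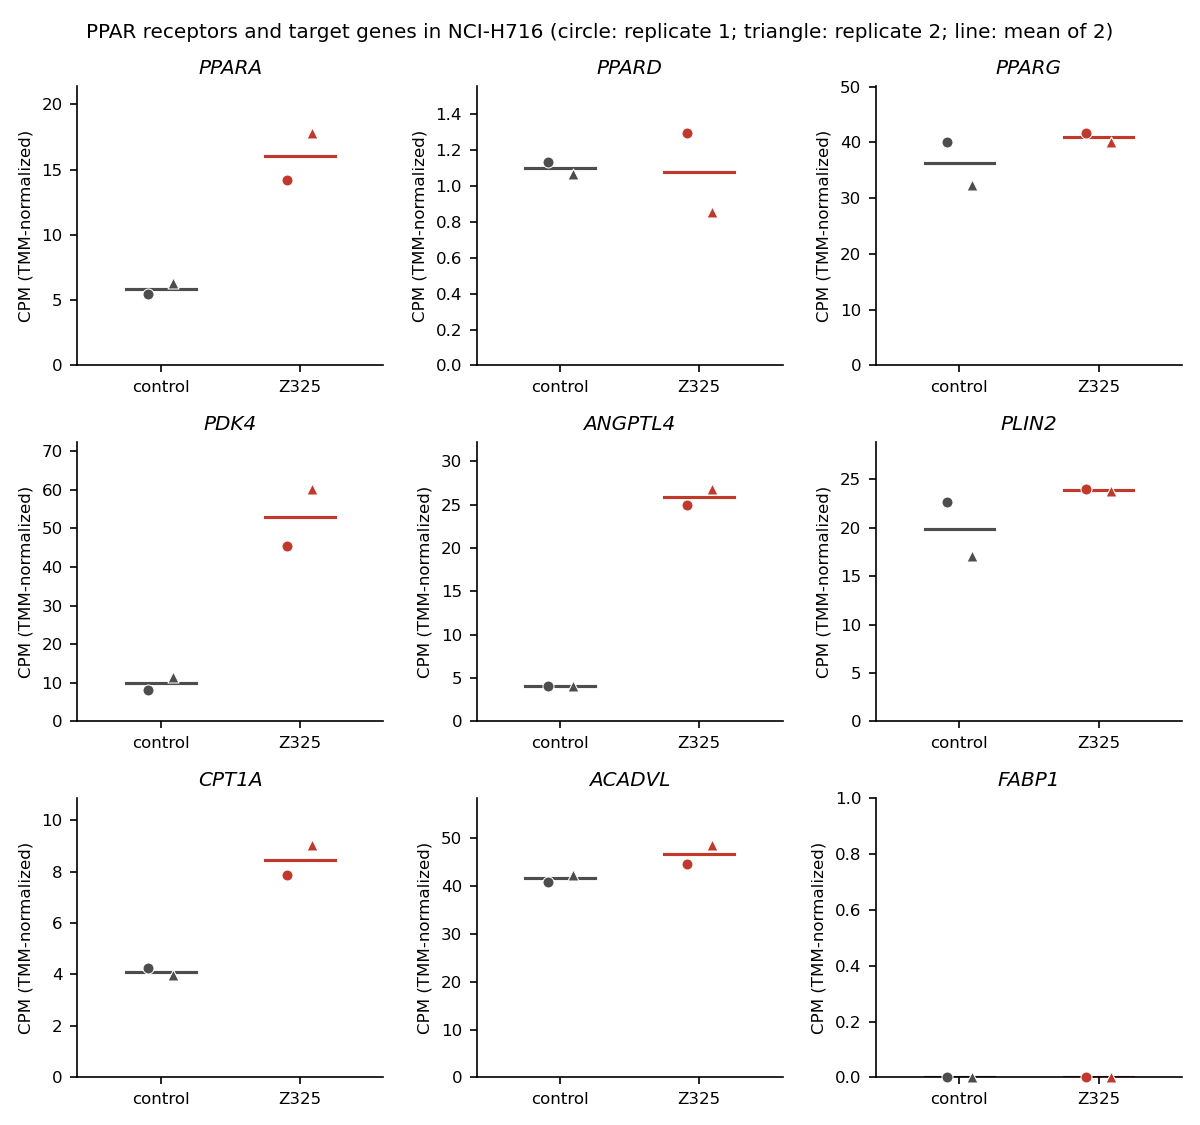
TMM-normalized CPM of the 9 genes in the 4 NCI-H716 libraries, control in grey and Z325 in red, each panel with its own linear axis from 0; points are libraries and lines are means of 2. *PDK4* sits at 8.25 and 11.5 CPM in the controls and at 45.5 and 60.3 CPM with Z325, *ANGPTL4* at 4.09 and 4.07 CPM and at 24.97 and 26.8 CPM, and *FABP1* is at 0 in all 4.

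*CPT1A* (chr11:68754620-68844410, - strand), the mitochondrial gate of fatty acid oxidation, was at 4.24 and 3.98 CPM in the NCI-H716 controls and at 7.87 and 9.05 CPM with Z325. The log2 fold change was 1.04 ± 0.31 and the ratio of mean CPM 2.06. The groups were apart, at 41 to 56 estimated reads in the controls and 103 and 180 with Z325. In TPM the controls were both at 0.67 and the treated libraries at 1.76 and 1.77, a larger ratio than in CPM, and the length RSEM assigned to *CPT1A* was shorter with Z325 (3513 and 3926 bases) than in the controls (4742 and 4992 bases).

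*PLIN2* (chr9:19108375-19149290, - strand), the lipid droplet coat, was at 22.6 and 17.1 CPM in the controls and at 24.1 and 23.8 CPM with Z325, a log2 fold change of 0.27 ± 0.22. *ACADVL* (chr17:7217125-7225266) was at 40.9 and 42.4 CPM in the controls and at 44.6 and 48.7 CPM with Z325, a log2 fold change of 0.16 ± 0.18. In both genes the treated libraries lay above the controls, by less than the gap between the replicates of one of the groups. *ACADVL* shares 49 exon bases, 1.02% of its exon sequence, with *DLG4* on the other strand, and reads there could not be told apart. *FABP1* (chr2:88122982-88128062, - strand), the intestinal and hepatic fatty acid carrier, had 0 reads in all 4 NCI-H716 libraries, which allows up to 3 reads or 0.152 to 0.294 CPM depending on the library.

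Of the 9 genes, 8 passed the filter on low counts in NCI-H716. Of these 8, 3 (*PPARA*, *PDK4* and *ANGPTL4*) were called higher and 0 lower by edgeR, where 0.403% of 14142 genes tested were called higher. In 7 of the 8 both treated libraries lay above both controls, which held for 24.3% of all genes tested, and *PPARD* was the exception. The median log2 fold change of the 8 was 0.65, and that of all genes tested -0.01. Since this contrast chose the genes, nothing is read from these counts.

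On the per-length scale in the NCI-H716 controls, *ACADVL* was the most abundant at 66.2 ± 3.35 TPM (SD, n = 2), followed by *PPARG* at 21.1 ± 6.81 TPM and *PLIN2* at 9.55 ± 1.33 TPM. *PDK4* at 2.23 ± 0.530 TPM and *ANGPTL4* at 2.01 ± 0.0212 TPM overlapped, as did *PPARA* at 1.12 ± 0.841 TPM and *CPT1A* at 0.67 TPM in both libraries, and *PPARD* was lowest of the detected genes at 0.415 ± 0.0778 TPM. With Z325 the order became *ACADVL* at 81.8 ± 6.63 TPM, *PPARG* at 21.99 ± 2.79 TPM, and then *PDK4* at 12.1 ± 2.64 TPM, *PLIN2* at 11.8 ± 0.240 TPM and *ANGPTL4* at 11.7 ± 0.474 TPM, whose ranges overlapped. Below them were *PPARA* at 3.13 ± 0.940 TPM, *CPT1A* at 1.77 ± 0.00707 TPM and *PPARD* at 0.300 ± 0.0566 TPM. *PDK4* and *ANGPTL4* thus moved from below *PLIN2* to its level. The length RSEM used for *ACADVL* was 677 to 723 bases, against 4820 annotated exon bases, so its TPM depends on the short transcripts chosen.

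In HCT116, whose values played no part in the choice of genes, *PDK4* was near the detection floor in 3 of the 4 libraries. It was at 0.362 and 0.767 CPM in the controls and at 0.313 and 4.30 CPM with Z325, on 5, 10, 4 and 15 reads. The high value came from Z325 replicate 2, the shallow library, and the groups overlapped. The log2 fold change was 1.85 ± 1.29 (edgeR quasi-likelihood test, adjusted p = 0.433), and without that library it was -0.80 (adjusted p = 0.822), so no change of *PDK4* was detectable in this line at this depth. Over the alternatives that could be run, the adjusted p of *PDK4* in HCT116 ran from 0.0709 to 0.822.

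*PPARG* in HCT116 was at 111 and 126 CPM in the controls and at 112 and 147 CPM with Z325, a log2 fold change of 0.12 ± 0.18 (edgeR quasi-likelihood test, adjusted p = 0.756). *PPARD* was at 3.98 and 6.37 CPM in the controls and at 4.30 and 5.16 CPM with Z325, a log2 fold change of -0.15 ± 0.46 (adjusted p = 0.896 in the same fit). In both receptors the groups overlapped, and the sign turned with 1 library left out, to -0.059 for *PPARG* without Z325 replicate 2 and to 0.23 for *PPARD* without control replicate 2, and *PPARD* was at -0.24 without Z325 replicate 2. *FABP1* had 0 and 3 reads in the controls and 4 and 0 with Z325 and was not tested, where 3 reads stand for 0.224 to 0.873 CPM. Of the 3 genes tested, 0 were called, against 5.78% of 6491 genes tested in this line and 23.9% at an unadjusted p under 0.05, and none of the 3 was at an unadjusted p under 0.05 or called by limma or, where it gave an adjusted p, by DESeq2. None had both treated libraries above both controls, which held for 24.8% of all genes, or below them, which held for 29% of all genes.

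**Figure D2:**
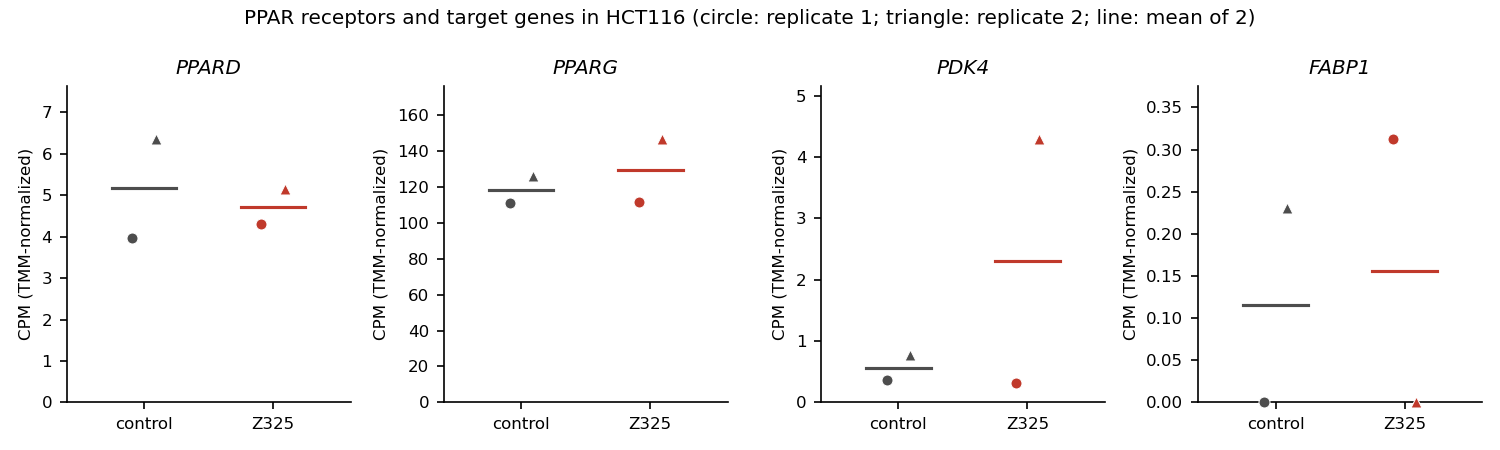
TMM-normalized CPM of the 4 genes listed for HCT116, control in grey and Z325 in red, each panel with its own linear axis from 0; points are libraries and lines are means of 2. The groups overlap in every panel, and the *PDK4* value of 4.30 CPM is from Z325 replicate 2 alone.

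**Figure D3:**
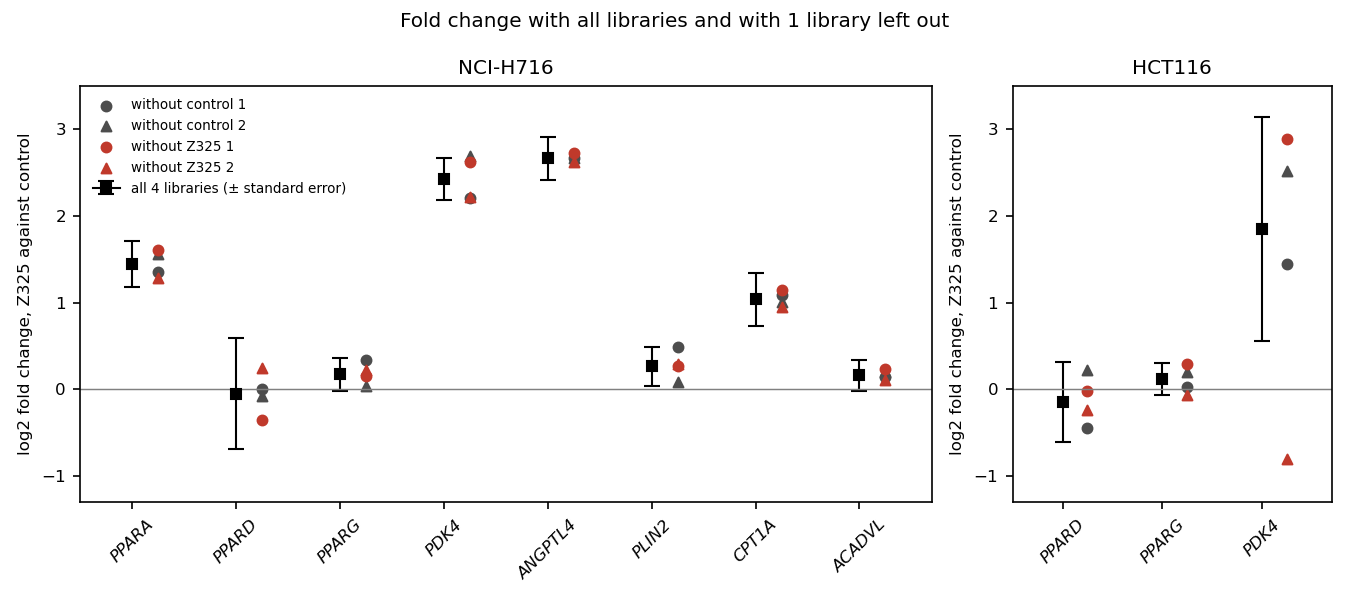
Log2 fold change of Z325 against control from edgeR, with all 4 libraries (squares, ± standard error) and with 1 library left out (circles and triangles, with no error), for the genes tested in each line on a linear axis. In NCI-H716 the values of *PDK4* (2.20 to 2.69) and *ANGPTL4* (2.63 to 2.72) stay together, while in HCT116 *PDK4* runs from -0.80 to 2.89.

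The same genes were set side by side on a common base, as CPM over the 28015 genes listed in both lines, with no test, since the lines were quantified separately. *PDK4* was at 19.1 and 26.7 CPM in the NCI-H716 controls and at 0.375 and 0.759 CPM in the HCT116 controls. With Z325 it was at 102.7 and 135.6 CPM in NCI-H716 and at 0.299 and 4.37 CPM in HCT116, so every NCI-H716 library was above every HCT116 library. *PPARG* was at 74.9 to 94.3 CPM in NCI-H716 and at 107 to 149 CPM in HCT116. *PPARD* was at 1.92 to 2.93 CPM in NCI-H716 and at 4.11 to 6.30 CPM in HCT116. On this base both receptors were thus higher in HCT116 in all libraries, and *PDK4* was the reverse. Per kilobase of length (FPKM), *PPARG* went the other way, at 8.89 to 12.4 FPKM in HCT116 and 21.9 to 33.9 FPKM in NCI-H716. *PPARD* and *PDK4* kept their order in FPKM. The scales rest on unlike sets of genes and lengths, so the order of *PPARG* between the lines was left undecided.

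Genes of fatty acid metabolism and of the signals that meet on *PDK4* and *ANGPTL4* were then compared from 8 lists of 162 genes in all, none of them among the 9. In NCI-H716, 134 were tested, and edgeR called 3 higher and 0 lower, against 0.403% and 0.099% of all genes. By sign 85 were higher and 49 lower, with a median log2 fold change of 0.11, where the median of all genes was -0.01. In HCT116, 57 were tested, 2 were called higher and 2 lower, against 2.83% and 2.94% of all genes, and the median was -0.08. Without the shallow Z325 replicate 2, the 4 genes called with all libraries in HCT116 kept their direction. Their log2 fold changes were then 0.70 for *DECR1*, 1.24 for *ME1*, -1.22 for *PDP1* and -0.95 for *FKBP5*. At an unadjusted p under 0.05 there were 21 above and 8 below the controls in NCI-H716 and 5 above and 10 below in HCT116. Over all genes tested, 16.9% in NCI-H716 and 23.9% in HCT116 were at an unadjusted p under 0.05 in either direction. Those shares also stand beside the unadjusted counts of each list below, from which nothing is read. With 1 library left out, the number of genes called also moved over all genes, as given at the end. A call gained or lost that way is therefore not read as a trait of a single gene. The calls by list come from fits with no term for the replicate number, and those with it are given at the end.

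Of 26 enzymes of fatty acid oxidation, 25 were tested in NCI-H716 and 0 were called by edgeR, DESeq2 or limma with no term for the replicate number. With that term edgeR called 5, where it called 1061 genes higher and 1336 lower over all genes. At an unadjusted p under 0.05 in the fit without it, 6 lay above and 0 below the controls. *ETFDH*, which passes electrons from fatty acid oxidation to the respiratory chain, had a log2 fold change of 0.53 ± 0.18 (edgeR quasi-likelihood test, adjusted p = 0.198), and *DECR1*, which prepares unsaturated fatty acids for oxidation, one of 0.50 ± 0.17 (adjusted p = 0.207). The list median was 0.06. In HCT116, 13 of the enzymes were tested and *DECR1* rose from 256 ± 2.37 to 387 ± 30.0 CPM, a log2 fold change of 0.60 ± 0.13 (edgeR quasi-likelihood test, adjusted p = 0.0370). That call was lost without control replicate 1 (log2 fold change 0.58), without control replicate 2 (0.60) and with limma (adjusted p = 0.0832 and 0.0948). *ACADM*, the medium-chain counterpart of *ACADVL*, had a log2 fold change of 0.35 ± 0.12 (edgeR adjusted p = 0.137) and the thiolase *ACAA1* one of -1.10 ± 0.47 (adjusted p = 0.198). Without Z325 replicate 2 *ACAA1* was at -1.57. *ACAA1* shares 19.7% of its exon bases with DLEC1, so its reads are uncertain in part.

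Of 20 genes of fatty acid uptake, activation and binding, 17 were tested in NCI-H716 and 6 in HCT116, and 0 were called by edgeR in either line, while 0 lay above and 2 below the controls at an unadjusted p under 0.05 in each. DESeq2 called 0 in NCI-H716 and 2 in HCT116, and limma 0 in both. In NCI-H716 the thioesterase *ACOT2* had a log2 fold change of -0.53 ± 0.18 (edgeR adjusted p = 0.205), the transporter *SLC27A4* one of -1.12 ± 0.46 (adjusted p = 0.260) and its relative *SLC27A2* one of 0.45 ± 0.20 (adjusted p = 0.296). *SLC27A2* shares 19.9% of its exon bases with *ATP8B4* on the other strand, so its reads are uncertain in part. In HCT116 the binding protein *FABP5* was at 1166 ± 28.1 CPM in the controls and 839 ± 24.9 CPM with Z325, with a log2 fold change of -0.47 ± 0.12 (edgeR adjusted p = 0.0565). The thioesterase *ACOT7* had one of -0.59 ± 0.19 (adjusted p = 0.1002) and the acyl-CoA synthetase *ACSL3* one of -0.17 ± 0.13 (adjusted p = 0.465). Without Z325 replicate 2, *FABP5* was at -0.42 and *ACOT7* at -0.65, and without Z325 replicate 1 *FABP5* was at -0.52.

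Of 17 other proteins of lipid droplets and lipases, 10 were tested in NCI-H716 and 4 in HCT116, and 0 were called by edgeR in either line. At an unadjusted p under 0.05 there were 2 above and 3 below the controls in NCI-H716 and 0 above and 1 below in HCT116, while DESeq2 called 2 in NCI-H716 and 0 in HCT116 and limma 0 in both. *HILPDA*, a hypoxia-induced inhibitor of the lipase *PNPLA2*, had log2 fold changes of -0.94 ± 0.24 in NCI-H716 (edgeR adjusted p = 0.126) and -0.61 ± 0.20 in HCT116 (adjusted p = 0.109). *CIDEB* had one of -1.49 ± 0.36 in NCI-H716 (edgeR adjusted p = 0.115), with 55.9% of its exon bases shared with *NOP9* on the other strand, so its reads are uncertain. *ABHD5*, the co-activator of *PNPLA2*, had one of 0.57 ± 0.20 (edgeR adjusted p = 0.202). In HCT116 *CIDEC* had 0 and 3 reads in the controls and 14 and 4 with Z325, with a log2 fold change of 3.18 ± 1.40 (edgeR adjusted p = 0.212), and the lipase *MGLL* one of 0.43 ± 0.36 (adjusted p = 0.532), which was 0.041 without Z325 replicate 2. With 1 library left out, the log2 fold changes in NCI-H716 ran from -1.22 to -0.68 for *HILPDA* and from -1.68 to -1.28 for *CIDEB*.

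Of 16 PPAR partners and coregulators, 15 were tested in NCI-H716, 13 of them above and 2 below no change by sign, with a median log2 fold change of 0.23. None was called by edgeR, DESeq2 or limma (0 of 15), while 3 had a higher and 0 a lower level at an unadjusted p under 0.05. The acetyltransferase *EP300* had a log2 fold change of 0.72 ± 0.28 (edgeR adjusted p = 0.238), the lipin coactivators *LPIN2* and *LPIN1* had 0.66 ± 0.29 (adjusted p = 0.281) and 0.54 ± 0.22 (adjusted p = 0.266). In HCT116, 4 were tested and 0 called by any of the 3 tools, with 0 at an unadjusted p under 0.05. There *LPIN1* had a log2 fold change of 0.59 ± 0.33 (edgeR adjusted p = 0.313), *PPARGC1B* one of -1.04 ± 0.54 (adjusted p = 0.287) and *NCOA1* one of -0.39 ± 0.37 (adjusted p = 0.582). Without Z325 replicate 2, *PPARGC1B* was at -1.60 and *NCOA1* at -0.13. The log2 fold change of *EP300* in NCI-H716 ran from 0.40 to 1.10 with 1 library left out.

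In the pyruvate dehydrogenase complex and its regulators, on which *PDK4* acts, 13 of 13 were tested in NCI-H716 and 0 were called by edgeR, DESeq2 or limma, while 1 lay above and 0 below the controls at an unadjusted p under 0.05. *PDK1*, a sister kinase of *PDK4*, had a log2 fold change of 0.63 ± 0.32 (edgeR adjusted p = 0.345), the core subunit *DLAT* one of 0.47 ± 0.20 (adjusted p = 0.271) and the pyruvate carrier *MPC2* one of -0.40 ± 0.19 (adjusted p = 0.303), with 21.8% of the exon bases of *MPC2* shared with DCAF6. *DLAT* shares 13.3% of its exon bases with *PIH1D2* on the other strand. The log2 fold change of *MPC2* ran from -0.65 to -0.17 with 1 library left out. In HCT116, 6 were tested and *PDP1*, the phosphatase that reverses the action of the PDK kinases, fell from 1083 ± 67.9 to 494 ± 53.5 CPM, a log2 fold change of -1.13 ± 0.14 (edgeR quasi-likelihood test, adjusted p = 0.00499). Without control replicate 1 or control replicate 2 its adjusted p was 0.0527 and 0.0575, with limma it was 0.0510 and 0.0618, and over all alternatives it ran from 3.47e-11 to 0.0618. In NCI-H716 *PDP1* was at 4.47 ± 2.04 CPM in the controls and 6.20 ± 1.16 CPM with Z325 (edgeR adjusted p = 0.571). These CPM are scaled to a wider set of genes than those of HCT116, so the 2 levels are on unlike bases. The log2 fold changes of the lines differed by 1.61 ± 0.34 (interaction term in edgeR, adjusted p = 0.0920), which missed the threshold. The subunits *DLD* and *PDHB* had log2 fold changes of 0.41 ± 0.14 (edgeR adjusted p = 0.120) and -0.54 ± 0.19 (adjusted p = 0.124) in HCT116. Without Z325 replicate 2, *DLD* was at 0.53 and *PDHB* at -0.27, while without Z325 replicate 1 *PDHB* was at -0.87.

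Among 28 other PPAR-responsive genes, 18 were tested in NCI-H716, 11 above and 7 below no change by sign. edgeR called 3 higher and 0 lower, against 0.403% and 0.099% of all genes. At an unadjusted p under 0.05, 4 lay above and 1 below the controls. *TRIB3*, a pseudokinase that restrains AKT, rose from 85.0 ± 6.498 to 230 ± 12.5 CPM, a log2 fold change of 1.43 ± 0.16 (edgeR quasi-likelihood test, adjusted p = 0.00410). *ME1*, the malic enzyme that makes NADPH for fatty acid synthesis, rose from 72.6 ± 13.5 to 183 ± 8.38 CPM, by 1.34 ± 0.18 (adjusted p = 0.0114 in the same edgeR fit). *PCK2*, the mitochondrial enzyme that makes phosphoenolpyruvate, rose from 40.2 ± 2.07 to 90.3 ± 2.56 CPM, by 1.17 ± 0.17 (adjusted p = 0.0159). *TRIB3* and *PCK2* are also known targets of the stress factor ATF4, and *ME1* of NRF2, and none of the 3 is an enzyme of fatty acid oxidation. Which of these factors, or of the PPARs, acted on them here was not tested. Without control replicate 1 the adjusted p was 0.108 for *ME1* and 0.142 for *PCK2*, and limma called none of the 3, with ranges over all alternatives of 1.8e-25 to 0.0876 for *TRIB3*, 3.16e-22 to 0.144 for *ME1* and 4.97e-14 to 0.144 for *PCK2*. In HCT116, 2 of the list were tested. *ME1* rose from 212 ± 18.0 to 503 ± 15.5 CPM, by 1.24 ± 0.13 on the log2 scale (edgeR quasi-likelihood test, adjusted p = 0.00288), and kept its call in all 11 alternatives. *KLF10* had a log2 fold change of 0.00 (0.004 ± 0.186, edgeR adjusted p = 0.994), with signs that turned in 8 of 11 alternatives, to -0.24 without Z325 replicate 2.

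Because *ANGPTL4* is induced by hypoxia and *PDK4* by glucocorticoids and FOXO factors, genes of those programmes were listed beside them. Of 20 hypoxia-induced genes, 18 were tested in NCI-H716 and 0 were called by edgeR, 1 by DESeq2 and 0 by limma, while 2 lay above and 2 below the controls at an unadjusted p under 0.05. *DDIT4* had a log2 fold change of 1.31 ± 0.30 (edgeR adjusted p = 0.101), *VEGFA* one of 0.66 ± 0.26 (adjusted p = 0.243) and *LDHA*, the lactate-forming enzyme, one of -0.47 ± 0.15 (adjusted p = 0.184). The log2 fold change of *DDIT4* ran from 0.96 to 1.85 with 1 library left out. In HCT116, 10 were tested and 0 were called by edgeR, DESeq2 or limma, while 0 lay above and 1 below the controls at an unadjusted p under 0.05. The glucose transporter *SLC2A1* had a log2 fold change of -0.69 ± 0.27 (edgeR adjusted p = 0.167), *EGLN1* one of -0.999 ± 0.775 (adjusted p = 0.489) and *ANKRD37* one of -0.36 ± 0.37 (adjusted p = 0.605). Without Z325 replicate 2, *SLC2A1* was at -0.98, *EGLN1* at -1.52 and *ANKRD37* at -0.20. *EGLN1* shares 55.8% of its exon bases with another protein-coding gene on its own strand and *ANKRD37* shares 40.3% with UFSP2 on the other strand, so the reads of both are uncertain.

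Of 22 glucocorticoid- and FOXO-induced genes, 18 were tested in NCI-H716, 14 above and 4 below no change by sign, with a median log2 fold change of 0.42, the highest of the 8 lists in that line. edgeR called 0, DESeq2 1 and limma 0, and 3 lay above and 0 below the controls at an unadjusted p under 0.05. *ERRFI1*, a feedback inhibitor of receptor tyrosine kinases, had a log2 fold change of 0.94 ± 0.18 (edgeR adjusted p = 0.0615), the insulin receptor substrate *IRS2* one of 0.85 ± 0.25 (adjusted p = 0.159) and *SESN3* one of 0.49 ± 0.19 (adjusted p = 0.245). With 1 library left out, the log2 fold changes ran from 0.85 to 1.06 for *ERRFI1* and from 0.63 to 1.06 for *IRS2*. In HCT116, 12 were tested and *FKBP5*, a glucocorticoid receptor chaperone, fell from 119 ± 3.91 to 65.4 ± 6.83 CPM, a log2 fold change of -0.87 ± 0.17 (edgeR quasi-likelihood test, adjusted p = 0.0284). That call was lost without control replicate 1 (log2 fold change -0.84), without control replicate 2 (-0.91) and with limma (adjusted p = 0.1096 and 0.1108). The kinase *SGK1* had a log2 fold change of -1.28 ± 0.39 (edgeR adjusted p = 0.0959) and *ERRFI1* one of 0.30 ± 0.12 (adjusted p = 0.187) in that line. *SGK1* was at -1.86 without Z325 replicate 1 and at -0.93 without Z325 replicate 2.

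**Figure D4:**
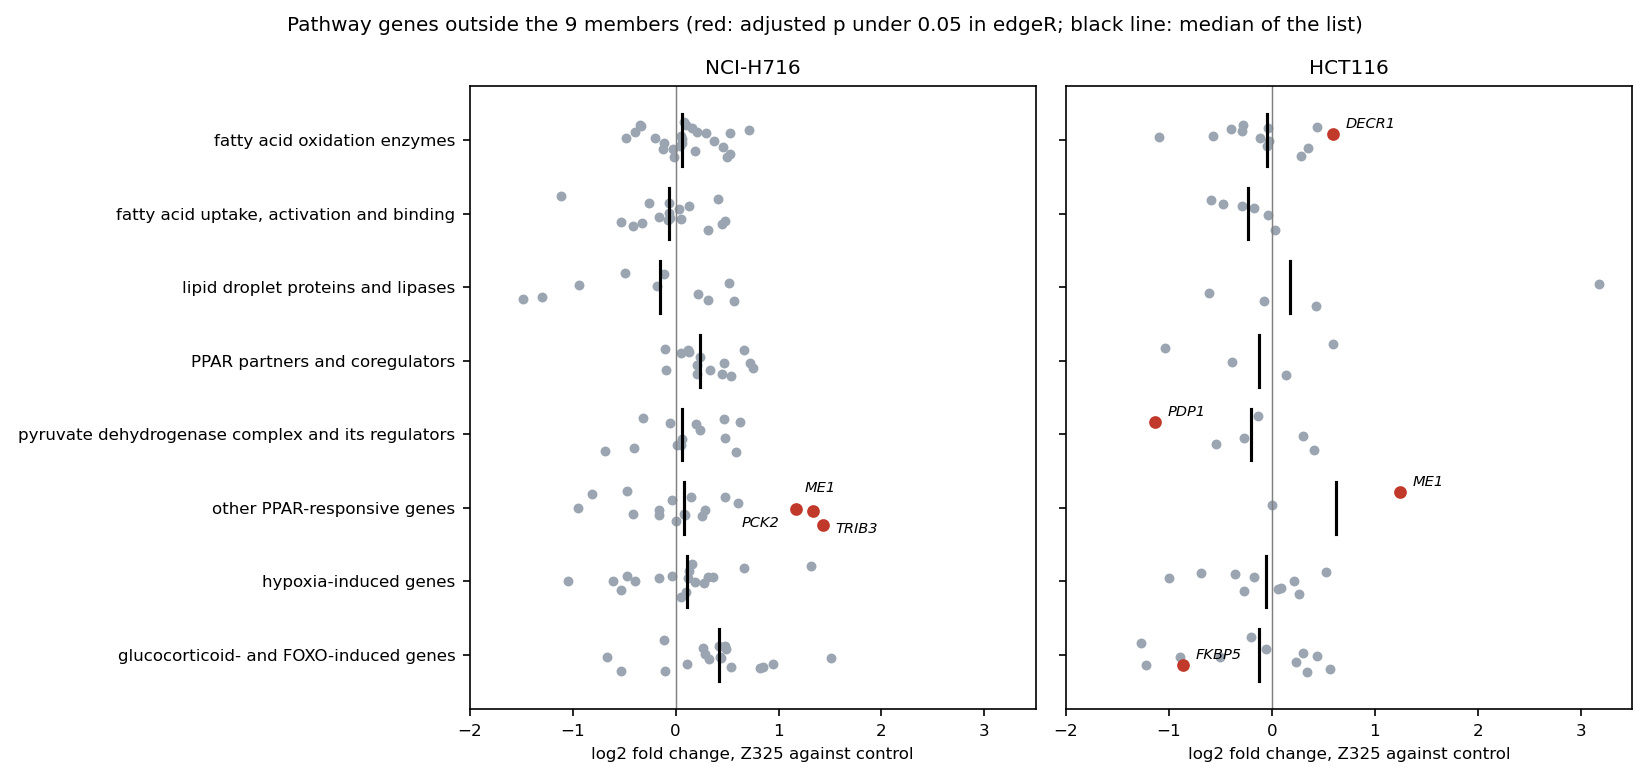
Log2 fold change of Z325 against control on a linear axis for each tested gene of the 8 lists, 134 in NCI-H716 and 57 in HCT116; red points passed an adjusted p under 0.05 in edgeR, grey points did not, and black lines are list medians. The red points are *TRIB3*, *ME1* and *PCK2* in NCI-H716 and *DECR1*, *ME1*, *PDP1* and *FKBP5* in HCT116, and the fatty acid oxidation enzymes of NCI-H716 have a median of 0.06.

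The interaction of treatment and cell line was tested for 65 genes of the lists. edgeR called 0 of them, against 0.0654% of 7642 genes tested, and 10 had an unadjusted p under 0.05, against 14.3% of all genes. A difference between the lines was therefore not shown for any of these genes. On simulated counts this fit recovered 54.5% of genes changed 4-fold up or down, so even large differences can be missed.

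The genes whose levels followed *ANGPTL4* most closely over the 4 NCI-H716 libraries were sought by the Euclidean distance of log2 CPM centred on the mean, among 14142 genes. The nearest was *SLC7A11*, the cystine transporter, at a distance of 0.297, then the glutathione peroxidase *GPX2* at 0.366, *PDK4* at 0.389, *ULBP1* at 0.438 and the long non-coding RNA *LINC01564* at 0.503. *PDK4* and *ANGPTL4* were chosen for their rise in these libraries, so nothing is read from their closeness. The genes nearest to *PDK4* over all 8 libraries, among 5014 genes tested in both lines, were *ZSCAN31* at 1.08, *RPL17P6* at 1.49, *RGPD8* at 1.496, *ULBP1* at 1.54 and *EIF4BP6* at 1.603. The distances to *PDK4* are larger and rest partly on its few HCT116 reads, and *RPL17P6*, *EIF4BP6* and *RGPD8* have near-identical copies in the genome, so their counts are uncertain.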

How the data were processed

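RNA-seq of HCT116 and NCI-H716 cells, 2 control and 2 Z325 libraries each, was analysed from the files the authors deposited. For NCI-H716 these were per-library RSEM tables giving each gene's expected counts, FPKM and TPM as the authors computed them. For HCT116 it was 1 table of raw read counts in the layout of featureCounts, deposited with gene positions and lengths. It had 28047 lines, and 4 broken ones were dropped. The submitters' processing notes name Bowtie2 2.5.0, featureCounts and hg38 and the study's methods STAR and RSEM, and neither says how reads in overlapping genes or paralogs were counted or that strand was used. HCT116 FPKM were computed here from the deposited counts and lengths.

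Expected counts, of which 6.65% were not whole, were rounded. Symbols came from GENCODE v44, for 62666 of 63241 identifiers. Each line was fitted alone in edgeR 4.0.16 (R 4.3.3) by its quasi-likelihood test after filterByExpr and TMM, with no term for the replicate number, and Benjamini-Hochberg adjustment ran over 6491 genes in HCT116 and 14142 in NCI-H716. The interaction was fitted over all 8 libraries on 7642 genes. Biological coefficients of variation were 0.245 (HCT116) and 0.203 (NCI-H716). With 2 against 2 libraries an exact permutation test cannot go below p = 0.333, so none was run. The steps were tested on simulated counts.

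The 9 genes and the 8 lists were chosen with earlier results of these data known. Of the lists, genes are named that passed an adjusted p under 0.05 in either line, and the 3 of each list with the smallest p in each line. A gene that this rule selects is not reported here. The 5 genes most like *PDK4* and like *ANGPTL4* are named by distance on log2(CPM + 1). Alternatives were DESeq2 1.42.0, library size alone, no filter, a minimum of 10 counts in every library, limma 3.58.1 on log2(FPKM + 1) and log2(FPKM + 0.1), a replicate block, and leaving out each library. Floors of 3 reads cover counting error only. Python 3.11.15, pandas 2.3.3 and matplotlib 3.10.9 were used for the summaries and figures.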

Additional observations from a re-analysis of the deposited data

How the results depend on the processing

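The direction of *PPARA*, *PPARG*, *PDK4*, *ANGPTL4*, *PLIN2*, *CPT1A* and *ACADVL* in NCI-H716 was positive under all alternatives run. With limma on log2(FPKM + 1) and log2(FPKM + 0.1) the log2 fold changes were 1.16 and 1.68 for *PPARA*, 2.23 and 2.56 for *ANGPTL4*, 0.87 and 1.36 for *CPT1A* and 0.37 and 0.37 for *ACADVL*, and with the second *PPARD* was at -0.33. With 1 library left out they ran from 1.29 to 1.61 (*PPARA*), 0.042 to 0.34 (*PPARG*), 2.20 to 2.69 (*PDK4*), 2.63 to 2.72 (*ANGPTL4*), 0.091 to 0.49 (*PLIN2*), 0.95 to 1.15 (*CPT1A*), 0.11 to 0.23 (*ACADVL*) and -0.35 to 0.25 (*PPARD*), the last with a turned sign without control replicate 1 (0.005) and without Z325 replicate 2 (0.25). In HCT116 the ranges were -0.80 to 2.89 for *PDK4* (-0.80 without Z325 replicate 2), -0.45 to 0.23 for *PPARD* (0.23 without control replicate 2) and -0.059 to 0.29 for *PPARG* (-0.059 without Z325 replicate 2), and none passed the threshold in any alternative. A minimum of 10 counts in every library removed *PDK4* in HCT116, and DESeq2 gave it no adjusted p. The log2 fold change of *KLF10* in HCT116 turned to -0.027 with library size alone, -0.053 with no filter, -0.018 with a minimum of 10 counts, -0.012 with the replicate block, -0.048 and -0.050 with limma, -0.052 without control replicate 1 and -0.24 without Z325 replicate 2.

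Counts of genes called moved more. In HCT116, DESeq2 called 403 higher and 364 lower, limma 29 and 18 (pseudocount 1) and 22 and 15 (pseudocount 0.1), and 423 were lower with no filter and 345 with a minimum of 10 counts. Leaving out a library gave 15 to 514 higher and 6 to 562 lower, with 15 and 29 without control replicate 1, 17 and 6 without control replicate 2, 438 and 533 without Z325 replicate 1 and 514 and 562 without Z325 replicate 2. In NCI-H716, DESeq2 called 173 higher and 191 lower, limma 5 and 1 with each pseudocount, no filter gave 290 and 487, and library size alone gave 28 lower. Leaving out a library gave 31 to 502 higher and 7 to 884 lower, with 31 and 7 without control replicate 1, 149 lower without control replicate 2, 502 and 884 without Z325 replicate 1 and 115 and 107 without Z325 replicate 2. For the interaction, 58 genes were more positive in NCI-H716 and 48 in HCT116 with no filter, 11 and 15 with a minimum of 10 counts, 57 and 80 with DESeq2, 2 in HCT116 with library size alone, and 0 to 37 and 0 to 24 with a library left out. The 37 and 24 were without HCT116 Z325 replicate 2, and both were 0 without HCT116 control replicate 1, either NCI-H716 control or NCI-H716 Z325 replicate 2. Of the listed pathway genes in HCT116, limma called 1 and 1 higher and 0 and 0 lower, no filter 6 lower and DESeq2 4 lower, and 1 to 3 were higher and 0 to 9 lower with a library left out (9 without Z325 replicate 2, 5 without Z325 replicate 1, 0 without either control). In NCI-H716, limma called 0 and 0 higher, no filter 6 higher and 3 lower, DESeq2 5 and 2, and 2 to 8 were higher and 0 to 4 lower with a library left out (8 and 4 without Z325 replicate 1, 5 higher without Z325 replicate 2). A fit with 1 library in a group assumes that it varies like the other group. The causes were not tested.

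The labels number the replicates 1 and 2 in each group, but nothing says that a number marks a shared culture or day. The deviations of same-numbered libraries correlated at -0.0217 in HCT116 and 0.286 in NCI-H716, from 1 contrast of pairs each. With the replicate block, 1061 genes were called higher and 1336 lower in NCI-H716, 8 genes more positive in NCI-H716 and 4 in HCT116 by the interaction, and 19 listed pathway genes higher and 8 lower in NCI-H716. By list, the block called in NCI-H716 5 oxidation enzymes, 3 genes of uptake, 4 of lipid droplets, 2 PPAR partners, 2 of the pyruvate dehydrogenase complex, 5 other PPAR-responsive, 3 hypoxia-induced and 3 glucocorticoid- or FOXO-induced genes, against 3 other PPAR-responsive genes and 0 in the other lists without it. It moved no count in HCT116 by over 1.5 times.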
